A study of Mus musculus with 8 samples.

Results

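The matrix metalloproteinases (Mmp), the Adamts proteases and their tissue inhibitors (Timp) were compared between E-cadLO and E-cadHI tumor cells of mouse breast cancer brain metastases (BCBM). The members were all genes annotated as protein coding whose symbol is Mmp or Adamts followed by a number, and Timp1 to Timp4. This gave 45 of the 31894 genes in the count table, of which 22 were Mmp, 19 Adamts and 4 Timp genes. Mmp1a was annotated as a polymorphic pseudogene and was not a member.

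Matrix metalloproteinases are zinc proteases that cleave collagens, laminins, fibronectin and other extracellular matrix proteins, and most are secreted as inactive proenzymes or anchored at the cell surface. Adamts proteases carry thrombospondin motifs and cleave mainly proteoglycans such as versican and brevican, or trim procollagens. Timps bind the active site of these enzymes, and Timp3 is held in the matrix and inhibits Adamts proteases as well. In the brain, where fibrillar collagen is scarce, the matrix is rich in hyaluronan and in the hyaluronan-binding proteoglycans that Adamts proteases cleave.

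The tumor cells came from the PyMT mouse model, in which the polyoma middle-T antigen drives mammary carcinoma under the mouse mammary tumor virus promoter, and their E-cadherin was tagged with the fluorescent protein mCFP. They were passaged through mouse brains by serial transplantation, grown as organoids, labelled with nuclear H2B-Dendra2 and injected intracranially into FVB mice, whose genotype the labels give as wild type. From each of 4 mice, numbered 57, 58, 67 and 70, living Dendra2-positive cells with low tdTomato, which marks host cells in ROSA26mTmG mice, were sorted into CFP-positive (E-cadHI) and CFP-negative (E-cadLO) cells. Each mouse thus gave 1 library of each population, all tumors came from the same organoid line, no treatment was given in the labels, and the age of the mice is not given there. The purity of the sort was checked by the authors on CFP-positive cells alone.

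The total count per library lay between 9102781 and 15769200, so that 3 counts, used as the floor of detection, correspond to 0.190 to 0.330 CPM, the counts per 1000000 counts of a library. Levels are given as CPM after TMM scaling, and always in the order of mice 57, 58, 67 and 70. Cdh1, which encodes E-cadherin, had 114, 132, 93.4 and 108 CPM in E-cadHI cells and 71.1, 181, 84.2 and 59.0 CPM in E-cadLO cells, so its mRNA was lower in the E-cadLO library of 3 mice and higher in that of mouse 58. Epithelial markers were present in every library, since the summed level of 10 of them was 7419 to 10145 CPM in E-cadHI cells and 5434 to 13912 CPM in E-cadLO cells. Most of this sum was Krt8 and Krt18. Of the 10 markers, 2 had a log2 fold change above 0 and 0 were called, with a median of -0.32. Epcam was lower in E-cadLO cells of all 4 mice, with 1343, 1130, 1289 and 1309 CPM in E-cadHI and 288, 1098, 825 and 789 CPM in E-cadLO cells. The E-cadLO library of mouse 57 stood apart: 10 fibroblast markers summed to 1143 CPM there, against 18.1 to 49.6 CPM in the other E-cadLO libraries and 7.20 to 23.7 CPM in E-cadHI libraries. Dpt, a fibroblast matrix protein, had 112 CPM in that library and 0 counts in the other 7. Marker sums of brain cells were higher in the E-cadLO library of each of the 4 mice, with 137 to 805 CPM against 35.4 to 228 CPM for 10 microglia and macrophage markers, 600 to 5209 CPM against 141 to 1301 CPM for 8 astrocyte markers, 1318 to 34360 CPM against 554 to 8602 CPM for 10 oligodendrocyte markers, and 46.9 to 401 CPM against 31.5 to 129 CPM for 8 neuron markers. The sum of 8 endothelial markers was also higher in E-cadLO cells of 4 mice (55.5 to 99.8 against 41.3 to 75.6 CPM) and that of 8 mural cell markers in 3 mice (29.4 to 189 against 25.97 to 91.1 CPM). Flt1 made up most of the endothelial sum, with 38.8 to 71.6 CPM in E-cadHI and 33.7 to 82.5 CPM in E-cadLO cells. In mouse 57 Flt1 was lower in E-cadLO cells (33.7 against 40.4 CPM). Since these are bulk libraries, a larger number of cells of a type and more mRNA per cell cannot be told apart.

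Of the 22 Mmp genes, 9 lie side by side on chromosome 9 (chr9:7272514-7699585, GRCm38), and the other 13 are spread over 9 other chromosomes. The summed level of the 9 clustered genes separated the populations in every mouse, as described below, whereas that of the other 13 did not. Sequence before the transcription start is therefore shown for Mmp3, Mmp10, Mmp12 and Mmp13, which carried most reads of the cluster, and for Timp3 and Timp4, the members that passed the test with mice paired. Each line gives the 100 bases before an annotated start, 5′ to 3′ on the strand of the gene, from RefSeq on GRCm38.p6. Capitals mark TGANTCA, the core that AP-1 (Fos and Jun dimers) is known to bind and which reads as the same pattern on both strands, and TATAAA, searched on the gene's strand. The regions are chr9:7445722-7445821 (Mmp3, plus strand), chr9:7502242-7502341 (Mmp10, plus), chr9:7347274-7347373 (Mmp12, plus, before the second of its annotated starts), chr9:7272414-7272513 (Mmp13, plus), chr10:86300312-86300411 (Timp3, plus) and chr6:115252206-115252305 (Timp4, minus).
Mmp3: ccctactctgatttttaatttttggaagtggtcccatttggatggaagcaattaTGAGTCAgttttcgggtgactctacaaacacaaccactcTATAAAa
Mmp10: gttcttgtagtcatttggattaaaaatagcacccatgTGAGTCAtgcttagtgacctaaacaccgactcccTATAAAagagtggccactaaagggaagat
Mmp12: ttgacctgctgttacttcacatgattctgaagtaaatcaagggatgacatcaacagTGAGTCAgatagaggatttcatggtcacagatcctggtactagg
Mmp13: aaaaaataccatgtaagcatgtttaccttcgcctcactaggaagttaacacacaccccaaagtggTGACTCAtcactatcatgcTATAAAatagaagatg
Timp3: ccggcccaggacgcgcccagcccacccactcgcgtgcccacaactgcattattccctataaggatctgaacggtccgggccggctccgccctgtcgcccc
Timp4: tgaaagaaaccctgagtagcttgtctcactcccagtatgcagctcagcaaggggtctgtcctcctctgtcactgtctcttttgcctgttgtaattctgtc

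The TGANTCA core began 46 bases before the start in Mmp3, 63 in Mmp10, 44 in Mmp12 and 35 in Mmp13. The first 3 read TGAGTCA and that of Mmp13 read TGACTCA. In the 250 bases before any annotated start of the gene, 7 of the 9 genes of the cluster held the core (Mmp3, Mmp7, Mmp10, Mmp12, Mmp13, Mmp1b and Mmp20), and Mmp8 and Mmp27 did not. The first annotated start of Mmp12 and the second of Mmp7 lacked it. None of the 22 other members with a RefSeq promoter entry held it, Timp3 and Timp4 included, while 14 members had no entry in the table. The share among all 32851 promoter entries, counted per entry and not per gene, was 6.75% for TGANTCA and 7.59% for TATAAA, and 0.791% held both. TATAAA was found in 6 of the 9 clustered genes and in 2 other members, Adamts1 and Mmp21. A match describes the letters of this window and was not set against binding of any factor here.

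Reads of the clustered Mmp genes were scarce in E-cadHI cells, with summed levels of 0.836, 1.69, 2.45 and 9.90 CPM (12, 22, 33 and 113 counts). In E-cadLO cells the same 9 genes summed to 142, 19.03, 45.2 and 34.1 CPM (1921, 164, 673 and 490 counts). All 4 E-cadLO libraries were thus above all 4 E-cadHI libraries, and the within-mouse log2 ratio, computed on CPM plus 0.5, was 6.73, 3.16, 3.95 and 1.73. Mmp3 and Mmp10 made up most of this sum in mouse 57 and mouse 67, and without both the remaining 7 genes gave log2 ratios of 2.06, 3.30, 1.81 and 2.23. Most of this remainder was Mmp12, with 4.28, 12.6, 7.92 and 14.8 of 5.09, 18.0, 8.52 and 18.7 CPM in E-cadLO cells. Mmp7 was lower in E-cadLO cells of 3 mice, and Mmp1b, Mmp20 and Mmp27 had at most 3 counts in any library. The other 13 Mmp genes summed to 67.2, 65.9, 62.6 and 66.6 CPM in E-cadHI cells, a narrow range, and to 218, 89.5, 50.1 and 54.2 CPM in E-cadLO cells. Their sum was therefore higher in E-cadLO cells of mice 57 and 58 and lower in those of mice 67 and 70. These sums are descriptions over genes grouped by position and were not tested.

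**Figure D1:**
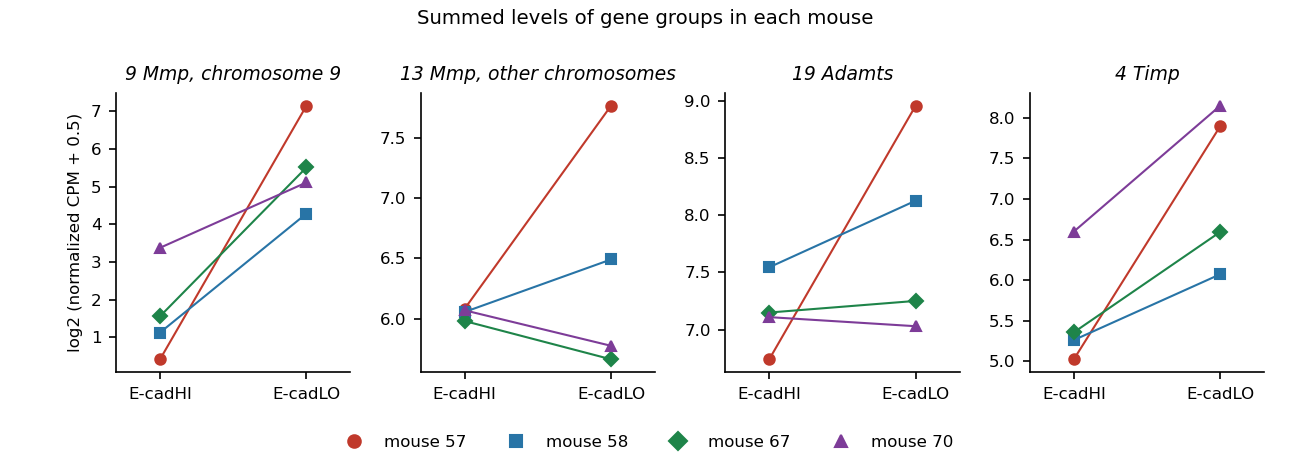
Summed level of 4 gene groups in E-cadHI and E-cadLO libraries, as log2 of TMM-normalized CPM plus 0.5, with a line joining both libraries of a mouse and a vertical axis of its own in each panel. The Mmp genes of chromosome 9 and the Timp genes were higher in E-cadLO cells of all 4 mice, the other Mmp genes in 2 mice and the Adamts genes in 3 mice.

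Across the whole family, 23 of the 45 members (9 Mmp, 10 Adamts and 4 Timp genes) had enough counts to be tested. Some of them, among them Adamts2, Adamts5, Mmp10, Mmp12 and Mmp17, had few counts in E-cadHI cells. They passed the filter on low counts through their E-cadLO libraries, so the counts of members by direction given below partly follow from that filter. The fitted log2 fold change of E-cadLO over E-cadHI was above 0 for 19 of the 23 and below 0 for Adamts3, Adamts15, Mmp15 and Mmp25, against 55.1% of all 13598 tested genes above 0. The median over the 23 members was 1.22, and 0.77 with the mouse as a block, beside 0.06 and 0.03 over all tested genes. No member passed an adjusted p of 0.05 in the edgeR quasi-likelihood fit without the block (0 of 13598 genes in either direction, 0.0% called). At an unadjusted p under 0.05, 10 members were higher and 0 lower, beside 8.16% and 5.81% of all tested genes. A log2 fold change of at least 1 was fitted for 13 members and one of -1 or less for 0, beside 15.3% and 1.46% of all tested genes. Without mouse 57 these counts were 6 and 0 of 23 members (Mmp10, Mmp12, Mmp17, Adamts2, Timp3 and Timp4), beside 13.2% and 0.913%. In the blocked fit, 17 of the 23 were above 0 (52.2% of all tested genes), and at an unadjusted p under 0.05 8 members were higher and 2 lower (Adamts15 and Mmp15), beside 12.3% and 7.33%. In the fit that pairs the libraries of each mouse, Timp3 and Timp4 rose (background 0.728% of tested genes higher and 0.0% lower), and Mmp12, Timp3 and Timp4 passed in that fit without mouse 57 (3.06% of 13905 tested genes). DESeq2 without the block called 4 members higher, Adamts4, Mmp12, Mmp17 and Timp3 (background 2.22%), and 0 lower (0.426%). Adamts5, Adamts8, Timp2 and Timp4 were given no p-value in this fit and could not be called. With the block DESeq2 called 7 higher, which added Adamts1, Adamts2 and Timp4 (7.57%). Adamts15 was the member that DESeq2 with the block called lower (1.63%).

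The 8 tested members with a higher level in the E-cadLO library of all 4 mice were Mmp10, Mmp12, Mmp17, Adamts1, Adamts4, Timp2, Timp3 and Timp4, and 0 tested members were lower in all 4. Over all tested genes these shares were 16.7% and 14.2%. Mmp10, Mmp12 and Mmp17 entered this count through the E-cadLO libraries in which they are high, so their direction is not separate from the filter on low counts. The same 8 were higher in each of mice 58, 67 and 70, against 22.0% of tested genes, so leaving out mouse 57 did not change this count. In the other direction, 1 tested member (Adamts10) was lower in each of these 3 mice, against 17.6% of tested genes. Of members not tested, Mmp24 was higher in all 4 mice, and so was Mmp3, though by a log2 ratio of only 0.0045 in mouse 58. Mouse 57 did set the size of many ratios: the median within-mouse log2 ratio of the 23 members was 1.63, 0.46, 0.30 and 0.03 in mice 57, 58, 67 and 70. The E-cadLO library of mouse 57 held the highest level of the 8 libraries for 14 of the 23 tested members and for 25 of all 45, beside 21.3% of all tested genes.

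**Figure D2:**
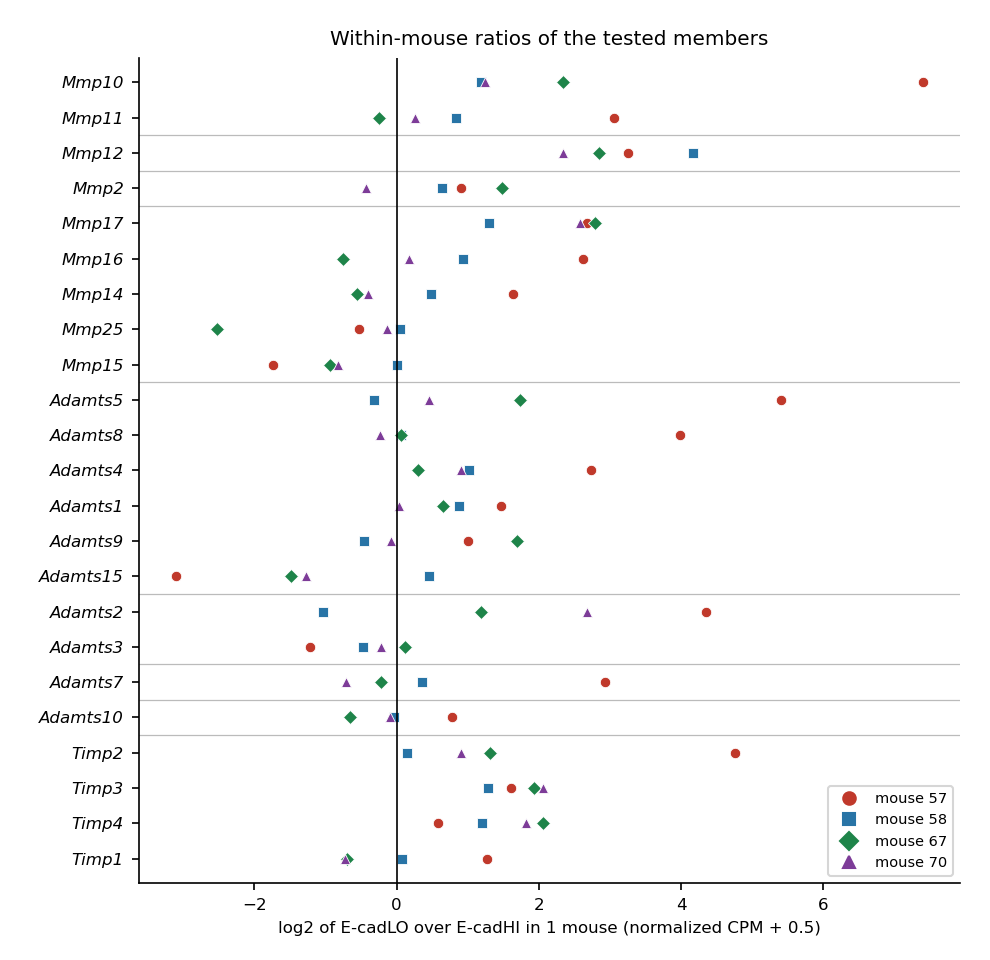
Within-mouse log2 ratio of E-cadLO over E-cadHI (TMM-normalized CPM plus 0.5) for the 23 tested members, 1 point per mouse, with grey lines between role groups. Timp3, Mmp12, Mmp17 and Mmp10 lay above 1 in every mouse. Mmp10, Timp2, Adamts5 and Adamts8 had ratios of 3.98 to 7.40 in mouse 57 and lower ones in the other mice.

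Timp3, the matrix-bound inhibitor (chr10:86300372-86349506, plus strand), gave the clearest difference among the inhibitors. It was at 11.1, 13.6, 15.8 and 19.9 CPM in E-cadHI cells and at 34.7, 33.7, 61.6 and 84.3 CPM in E-cadLO cells. The lowest E-cadLO library was above the highest E-cadHI library, and the within-mouse log2 ratio was 1.72 ± 0.35 (SD, n = 4 mice). The log2 fold change was 1.83 (SE 0.34, edgeR adjusted p = 0.204) without the block and 1.76 (SE 0.20, adjusted p = 0.0239) with it. Over the 16 settings tried, its adjusted p ranged from 1.96e-11 to 0.680 and passed the threshold in 6. With the block it passed without mouse 57 (adjusted p = 0.00373) and without mouse 58 (0.0379), and it did not pass without mouse 67 (0.247) or mouse 70 (0.136), while its log2 fold change stayed between 1.66 and 1.96 whichever mouse was left out. Timp3 shares 1733 exonic bases with Syn3, a neuronal synapsin on the opposite strand, and the strand used in counting is not given in the sources used here. Syn3 itself had at most 0.996 CPM in any library.

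Timp4 (chr6:115241892-115252205, minus strand), an inhibitor known from heart and brain, varied more between mice than between populations. Its level was 0.279, 5.13, 2.08 and 47.8 CPM in E-cadHI cells and 0.664, 12.4, 10.3 and 169 CPM in E-cadLO cells. Both libraries of mouse 70 were the highest and both of mouse 57 the lowest of their group, and the groups overlapped. Within each mouse the E-cadLO library was higher, by log2 ratios of 0.58, 1.20, 2.06 and 1.81. The log2 fold change was 1.81 (SE 1.59, adjusted p = 0.581) without the block and 1.73 (SE 0.25, adjusted p = 0.0339) with the block, so the call rests on the pairing. With 1 mouse left out of the blocked fit, the adjusted p was 0.00479 without mouse 57, 0.0521 without 58, 0.287 without 67 and 0.2998 without 70, and over the 14 settings that gave one it ranged from 1.61e-06 to 0.776. It shares 90 exonic bases with Syn2, a synapsin on the opposite strand that had 0 to 5.17 CPM in E-cadHI and 0.959 to 10.3 CPM in E-cadLO cells.

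Lists of brain cells moved in the same mice. For astrocytes, all 8 of its markers had a log2 fold change above 0 and 3 rose in the blocked fit, none was at 0 in all libraries of a group, and its sum was 141, 472, 285 and 1301 CPM in E-cadHI cells and 600, 790, 851 and 5209 CPM in E-cadLO cells. In mouse 57 most of this sum was Gja1, with 127 CPM in E-cadHI and 532 CPM in E-cadLO cells. There Gfap, Slc1a2 and Slc1a3 were also higher in E-cadLO cells, at 8.92, 23.7 and 23.7 CPM, and Aqp4 was lower (0.369 against 0.627 CPM). The 10 oligodendrocyte markers, 9 of which had a log2 fold change above 0 and 2 of which rose in the blocked fit, summed to 554, 1633, 962 and 8602 CPM in E-cadHI cells and 1318, 3804, 4297 and 34360 CPM in E-cadLO cells. The 8 neuron markers, all above 0 and 1 of which rose in the blocked fit, summed to 31.5, 129, 66.2 and 127 CPM in E-cadHI cells and 46.9, 220, 190 and 401 CPM in E-cadLO cells. No marker of either list was at 0 in all libraries of a group. Mouse 70 had the highest astrocyte and oligodendrocyte sums in both populations, as it did for Timp4 and Timp3. The part of RNA from these cells in the Timp3 and Timp4 differences was not tested.

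Timp2, which also takes part in the activation of pro-Mmp2 together with Mmp14, was at 5.64, 8.43, 5.196 and 9.46 CPM in E-cadHI cells and at 165, 9.40, 13.7 and 18.1 CPM in E-cadLO cells. The value of mouse 57 was far above the rest, and the E-cadLO library of mouse 58 lay just under the highest E-cadHI library. Its log2 fold change was 2.85 (SE 0.90, adjusted p = 0.291) without and 1.70 (SE 0.73, adjusted p = 0.253) with the block, and fell to 0.81 at the lowest when 1 mouse was left out. Timp1, the soluble inhibitor that many stimuli induce, was at 15.1, 10.8, 17.4 and 19.3 CPM in E-cadHI cells and at 37.0, 11.4, 10.5 and 11.5 CPM in E-cadLO cells. It was higher in E-cadLO cells of mouse 57, nearly level in mouse 58 and lower in mice 67 and 70, with a log2 fold change of 0.18 (SE 0.44, adjusted p = 0.861) that changed sign with the block (-0.03, SE 0.38, adjusted p = 0.967).

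**Figure D3:**
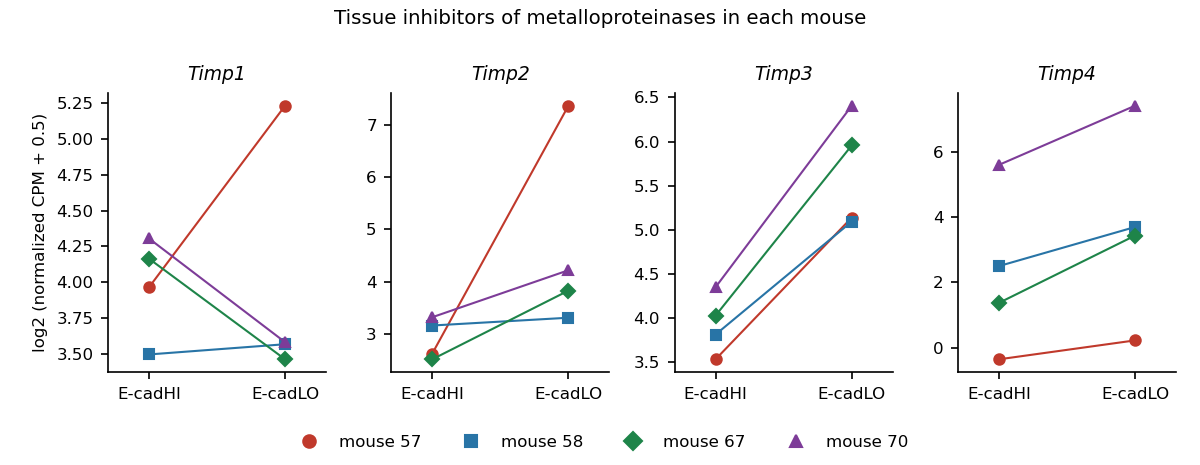
Level of Timp1 to Timp4 in both populations of each mouse, as log2 of TMM-normalized CPM plus 0.5, with a vertical axis of its own in each panel. Timp3, Timp4 and Timp2 are higher in E-cadLO cells of all 4 mice, Timp2 most so in mouse 57, and Timp1 is higher in 2 mice and lower in 2.

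Among the secreted Mmp genes, Mmp12, the macrophage elastase, was the member with the largest log2 fold change in the blocked fit. It had 0, 0.230, 0.668 and 2.54 CPM in E-cadHI cells (0, 3, 9 and 29 counts) and 4.28, 12.6, 7.92 and 14.8 CPM in E-cadLO cells (58, 109, 118 and 213 counts). The groups did not overlap, which held for 4 of the 23 members in this direction (Adamts4, Mmp12, Mmp17 and Timp3) and for 3.88% of all tested genes. Of these, Mmp12 and Mmp17 passed the filter on low counts through their E-cadLO libraries. The log2 fold change was 3.54 (SE 1.07, adjusted p = 0.282) without the block and 4.21 (SE 0.79, adjusted p = 0.0690) with it. DESeq2 called it with an adjusted p of 0.0107 without the block, and the blocked edgeR fit did so without mouse 57 (adjusted p = 0.0111), within a range of 3.89e-07 to 0.680 over 15 settings. The 10 microglia and macrophage markers all had a log2 fold change above 0, 4 of them rose in the blocked fit, and their sum was 35.4, 77.7, 104 and 228 CPM in E-cadHI cells and 137, 172, 588 and 805 CPM in E-cadLO cells. None of the 10 was at 0 in all libraries of a group. Mmp12 and this sum were both lowest in mouse 57 and highest in mouse 70 within each population. In E-cadLO cells mice 58 and 67 were in opposite order, with 12.6 and 7.92 CPM for Mmp12 and 172 and 588 CPM for the sum. The within-mouse log2 ratio of Mmp12 was largest in mouse 58 (4.17), where that of the sum was smallest (1.14). The part of macrophage RNA in the Mmp12 difference was not tested.

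The stromelysins Mmp3, Mmp10 and Mmp11 are proteases of broad specificity, the first 2 of which also activate other Mmp proenzymes. Mmp10 was at 0, 0.0766, 0.223 and 5.61 CPM in E-cadHI cells and at 84.0, 0.812, 3.15 and 14.0 CPM in E-cadLO cells. The E-cadLO library was higher in all 4 mice, by log2 ratios of 7.40, 1.19, 2.34 and 1.25, but the groups overlapped because of the E-cadHI library of mouse 70. Its log2 fold change was 4.14 (SE 1.73, adjusted p = 0.339) without and 4.13 (SE 1.43, adjusted p = 0.197) with the block. Without mouse 57 these values were 1.59 and 2.38, and without mouse 70 they were 8.13 and 6.98. Mmp11 had 1.67, 3.22, 0.965 and 0.964 CPM in E-cadHI cells and 17.5, 6.15, 0.738 and 1.25 CPM in E-cadLO cells, higher in 3 of 4 mice (log2 fold change 1.91, SE 0.95, adjusted p = 0.391, and 0.62 without mouse 57). Mmp3 did not pass the filter on low counts and is named here after its values were seen. It had 0, 3, 2 and 8 counts in E-cadHI libraries and 713, 2, 499 and 21 counts in E-cadLO libraries, so that its reads came almost entirely from E-cadLO cells of mice 57 and 67 while mouse 58 had as few as the E-cadHI libraries. With no filter on low counts its edgeR adjusted p was 0.0890.

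As a sum, the fibroblast list was higher in the E-cadLO library of all 4 mice. Its sum was 8.15, 11.3, 7.20 and 23.7 CPM in E-cadHI cells and 1143, 22.7, 18.1 and 49.6 CPM in E-cadLO cells, for log2 ratios of 7.05, 0.98, 1.27 and 1.05, and Mmp3 was at 52.6, 0.232, 33.5 and 1.46 CPM in the same E-cadLO libraries. All 7 tested markers of the 10 had a log2 fold change above 0 and 0 were called, and in E-cadHI libraries Dpt was at 0. Pdgfra, which is also among the oligodendrocyte markers, had 0.905, 4.06, 1.63 and 5.70 CPM in E-cadHI and 11.2, 9.52, 5.64 and 12.2 CPM in E-cadLO cells. Col1a2 had 2.51, 1.15, 1.19 and 2.02 CPM in E-cadHI and 309, 1.16, 0.537 and 9.96 CPM in E-cadLO cells, nearly level in mouse 58 and lower in mouse 67. The part of fibroblast RNA in the stromelysin values was not tested.

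The gelatinases cleave denatured collagen and the type IV collagen of basement membranes. Mmp2 had 1.84 to 4.60 CPM in E-cadHI and 2.02 to 8.997 CPM in E-cadLO cells, with a log2 fold change of 0.92 (SE 0.57, adjusted p = 0.464). Mmp9, not tested for low counts, had 8, 5, 0 and 4 counts in E-cadHI and 266, 0, 18 and 18 counts in E-cadLO libraries. The collagenases, which cut fibrillar collagen, were nearly silent: Mmp13 reached 24 and 33 counts in E-cadLO libraries of mice 58 and 70 and at most 5 elsewhere, Mmp8 reached 19 and 11 counts in the same 2 libraries and at most 4 elsewhere, and Mmp1b had at most 3 counts. Mmp13 and Mmp8 were thus highest in mice 58 and 70, and Mmp3 in mice 57 and 67. Neutrophils are a known source of Mmp8 and Mmp9, and the list of 10 neutrophil markers was mixed. Ly6g, Camp, Ngp, Retnlg and Elane were each at or below 0.672 CPM in every library, S100a8 was at 15.2 to 23.7 CPM in E-cadHI and 6.49 to 14.0 CPM in E-cadLO cells, and Csf3r was at 0.209, 1.15, 0.371 and 2.02 CPM in E-cadHI and 0, 1.16, 7.38 and 7.38 CPM in E-cadLO cells. Cxcr2 and S100a9 reached 2.37 and 1.74 CPM in the E-cadLO library of mouse 70. The sum of the 10 neutrophil markers, 12810 to 19349 CPM in E-cadHI and 2612 to 12572 CPM in E-cadLO cells, was nearly all Ltf, which mammary epithelium also makes, and without Ltf it was 16.1 to 25.0 and 6.78 to 25.7 CPM. The part of neutrophil RNA in the Mmp8 and Mmp9 values was not tested. Mmp7, an epithelial matrilysin, stayed at 1 to 14 counts in all libraries.

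**Figure D4:**
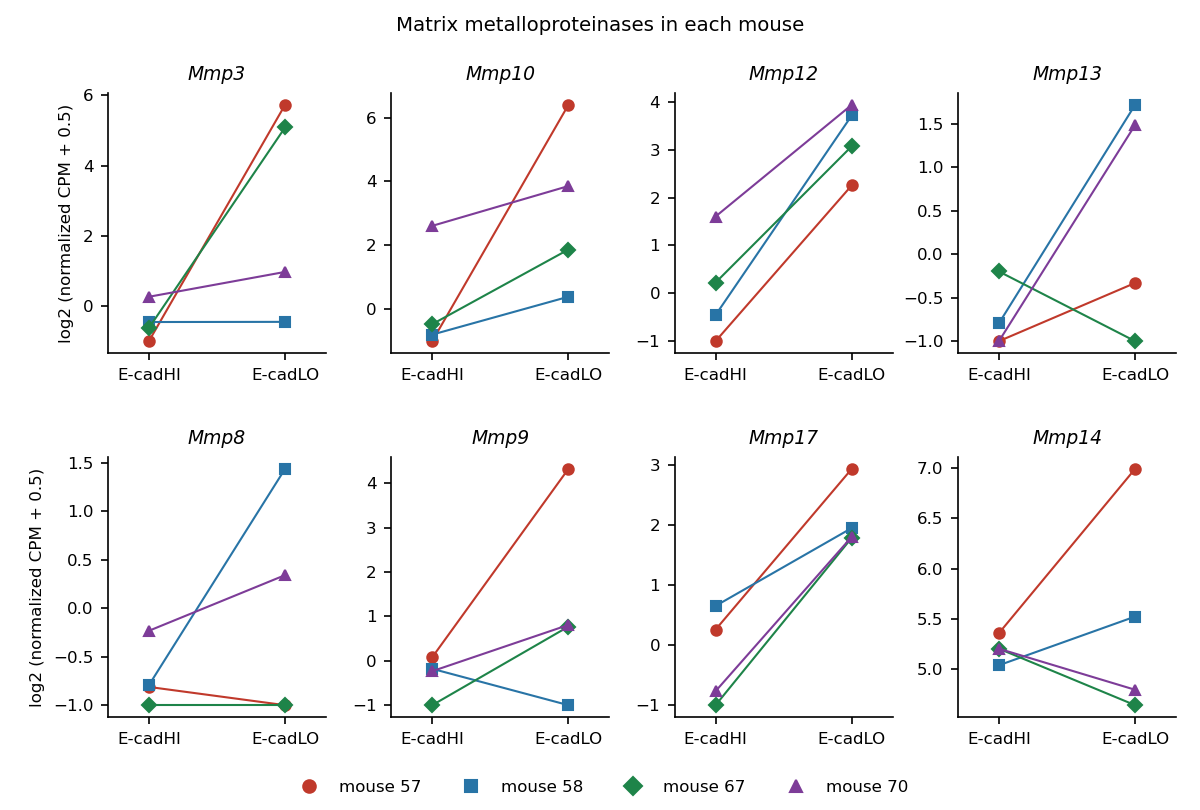
Level of 8 Mmp genes in both populations of each mouse, as log2 of TMM-normalized CPM plus 0.5, with a vertical axis of its own in each panel; a value of -1 means 0 counts. Mmp12, Mmp10 and Mmp17 are higher in E-cadLO cells of all 4 mice, Mmp3 most so in mice 57 and 67, Mmp13 and Mmp8 most so in mice 58 and 70, and Mmp14 is higher in 2 mice and lower in 2.

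Of the 6 membrane-type Mmp genes, whose enzymes act at the cell surface, 5 were tested. Mmp17, a glycosylphosphatidylinositol-anchored member, had 0.696, 1.07, 0 and 0.0876 CPM in E-cadHI cells and 7.15, 3.37, 2.95 and 2.99 CPM in E-cadLO cells. Its groups did not overlap, and the log2 fold change was 3.12 (SE 1.0, adjusted p = 0.298) without and 3.64 (SE 0.90, adjusted p = 0.123) with the block. DESeq2 gave an adjusted p of 0.0483 without and 0.000730 with the block, in a range of 0.000730 to 0.680 over 15 settings. Mmp14 (MT1-MMP), which activates pro-Mmp2 and cuts pericellular collagen, was the most abundant Mmp gene per kilobase in E-cadHI cells and did not move one way. It had 32.4 to 40.5 CPM in E-cadHI cells and 127, 45.5, 24.5 and 27.3 CPM in E-cadLO cells, for a log2 fold change of 0.62 (SE 0.48, adjusted p = 0.535). Mmp16 was at 3.48, 3.91, 6.83 and 6.13 CPM in E-cadHI cells and at 24.0, 7.89, 3.83 and 6.96 CPM in E-cadLO cells, again highest in mouse 57 (log2 fold change 1.07, SE 0.57, adjusted p = 0.411, and 0.12 without mouse 57). Mmp15 and Mmp25 had log2 fold changes of -0.71 (SE 0.46, adjusted p = 0.481) and -0.47 (SE 1.01, adjusted p = 0.831). Mmp24, not tested for low counts, had 1, 2, 5 and 2 counts in E-cadHI and 49, 9, 19 and 5 counts in E-cadLO libraries. The 6 remaining Mmp genes (Mmp19, Mmp20, Mmp21, Mmp23, Mmp27 and Mmp28) were not tested, with summed counts of 7 to 24 in E-cadHI and 10 to 70 in E-cadLO libraries.

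Adamts genes held more reads than Mmp or Timp genes in E-cadHI cells, with sums of 107, 186, 142 and 138 CPM, and 496, 279, 152 and 130 CPM in E-cadLO cells. Most came from the 7 proteoglycanases, which cleave aggrecan, versican or brevican. Read numbers depend on gene length. Per kilobase the E-cadHI sums were 16.8, 30.4, 23.1 and 21.9 for Adamts and 19.9, 16.9, 23.3 and 34.7 for Timp genes, so Timp was above Adamts in mice 57, 67 and 70. Adamts4 was at 8.98, 19.2, 16.6 and 18.3 CPM in E-cadHI cells and at 62.3, 39.3, 20.5 and 34.7 CPM in E-cadLO cells. Its groups did not overlap, although the lowest E-cadLO library was only just above the highest E-cadHI library. Its log2 fold change was 1.32 (SE 0.37, adjusted p = 0.269) without and 1.24 (SE 0.39, adjusted p = 0.178) with the block, and DESeq2 gave adjusted p-values of 0.0269 and 0.0248, in a range up to 0.680 over 16 settings. Without mouse 57 the unblocked value was 0.78.

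Adamts1, the Adamts gene with the highest median level per kilobase in both populations, had 36.5, 72.1, 43.6 and 42.9 CPM in E-cadHI cells and 102, 133, 68.6 and 43.8 CPM in E-cadLO cells. Each E-cadLO library was above its pair, by a log2 ratio that ranged from 1.47 in mouse 57 to 0.03 in mouse 70. The log2 fold change was 0.83 (SE 0.35, adjusted p = 0.339) without and 0.77 (SE 0.24, adjusted p = 0.177) with the block. Adamts15 was the proteoglycanase with the opposite sign, at 31.7, 37.6, 37.8 and 37.2 CPM in E-cadHI cells and 3.24, 51.9, 13.2 and 15.0 CPM in E-cadLO cells. It was lower in E-cadLO cells of 3 mice and higher in those of mouse 58, the mouse whose Cdh1 mRNA was also higher (log2 fold change -0.80, SE 0.64, adjusted p = 0.547 without the block and -1.37, SE 0.54, adjusted p = 0.226 with it). In DESeq2 with the block its adjusted p was 0.0487, and over 16 settings the range was up to 0.805. The unblocked value was -0.51 without mouse 57 and -1.75 without mouse 58.

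The values of Adamts5, Adamts7 and Adamts8 were set by mouse 57. Adamts5, the main aggrecanase of mouse cartilage, had 0.627, 0.996, 0.297 and 1.75 CPM in E-cadHI cells and 47.1, 0.696, 2.15 and 2.58 CPM in E-cadLO cells. Adamts8 was at 7.45, 15.9, 12.2 and 9.73 CPM in E-cadHI cells and at 125, 16.7, 12.8 and 8.22 CPM in E-cadLO cells. Adamts7, which cleaves cartilage oligomeric matrix protein, was at 7.24, 13.1, 8.31 and 9.20 CPM in E-cadHI cells and at 58.6, 16.8, 7.05 and 5.43 CPM in E-cadLO cells. For each of the 3 the E-cadLO library of mouse 57 was far above the other 7 libraries, which overlapped between the populations. Their log2 fold changes were 3.84 (SE 1.31, adjusted p = 0.298), 1.85 (SE 0.82, adjusted p = 0.356) and 1.22 (SE 0.69, adjusted p = 0.435) for Adamts5, Adamts8 and Adamts7. Without mouse 57 the unblocked value of Adamts5 was 0.83, that of Adamts8 -0.03 and that of Adamts7 -0.08. Of members not tested, Adamts16, Adamts14 and Adamts6 had 581, 213 and 188 counts in the E-cadLO library of mouse 57 and at most 17 in any other.

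The procollagen N-proteinases Adamts2, Adamts3 and Adamts14 trim the amino-terminal propeptide of collagens or, for Adamts3, process the lymphatic growth factor Vegfc. Adamts2 had 0, 0.766, 0.0742 and 0.0876 CPM in E-cadHI cells and 9.73, 0.116, 0.805 and 3.27 CPM in E-cadLO cells, higher in 3 of 4 mice. The log2 fold change was 3.87 (SE 1.41, adjusted p = 0.307) without and 3.62 (SE 1.74, adjusted p = 0.291) with the block, and DESeq2 with the block gave an adjusted p of 0.0334, in a range up to 0.699 over 13 settings. Without mouse 57 the unblocked value was 2.11 and without mouse 58 it was 6.27. Adamts3 had log2 fold changes of -0.28 (SE 0.51) and Adamts9 and Adamts10 of 0.26 (SE 0.65) and 0.10 (SE 0.51), with adjusted p-values of 0.804, 0.858 and 0.936. The other members not tested, from Adamts12 to Adamts20, had at most 13 counts in any library.

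**Figure D5:**
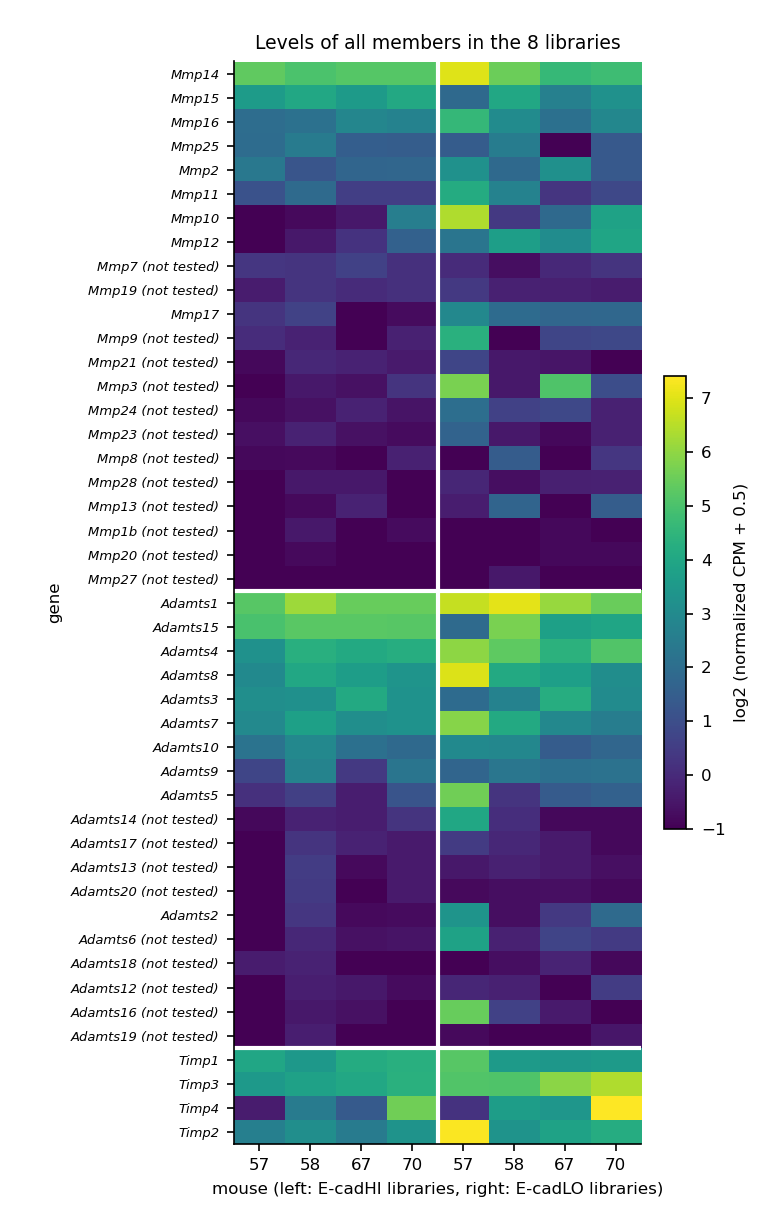
Level of all 45 members (rows, grouped into Mmp, Adamts and Timp and ordered within a group by their mean in E-cadHI cells) in the 8 libraries (columns), as log2 of TMM-normalized CPM plus 0.5. The E-cadLO library of mouse 57 is brightest for 25 members, and most members marked as not tested are near the lowest value, -1, in all libraries.

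To compare levels between genes, CPM were divided by the length of all exons in kilobases. In E-cadHI cells the highest medians over the 4 mice were those of Timp1 (18.3 CPM per kilobase), Adamts1 (8.17), Mmp14 (6.10), Adamts4 (3.62) and Adamts15 (3.61). In E-cadLO cells Adamts1 (16.1) and Timp1 (12.9) led, followed by Mmp3 (9.70), Adamts4 (7.70), Mmp14 (6.11) and Timp3 (5.92). Mmp3 thus moved from rank 22 to rank 3 and Mmp10 from rank 24 to rank 7, and Adamts15 from rank 5 to rank 15, though the Mmp3 median lies between 2 libraries with many and 2 with few reads. The summed Timp level per kilobase divided by the summed Mmp level was 1.51, 1.25, 1.85 and 2.07 in E-cadHI cells and 0.722, 1.01, 0.774 and 2.51 in E-cadLO cells. It was lower in E-cadLO cells of mice 57, 58 and 67 and higher in those of mouse 70, so the populations overlapped.

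Other genes of the pathway were examined as a list of 37 activators, other inhibitors, binding partners, related proteases and substrates, of which 33 were tested. Their log2 fold change was above 0 for 22 and below 0 for 11 (55.1% of all tested genes were above 0), with a median of 0.68 beside 0.06, and 10 were higher and 1 lower (Adam10) in E-cadLO cells of all 4 mice (16.7% and 14.2% of all tested genes). None was called in the edgeR fit without the block (0.0%), and 1 rose in the blocked edgeR fit (0.728%). This was Bcan, which encodes brevican, the brain proteoglycan that Adamts4 and Adamts5 cleave. Bcan had 0.279, 7.28, 1.34 and 17.9 CPM in E-cadHI cells and 0.664, 29.7, 6.24 and 55.0 CPM in E-cadLO cells, highest in mouse 70 and lowest in mouse 57 in both populations, as was Timp4. Its blocked log2 fold change was 1.85 (SE 0.28, adjusted p = 0.0392) against 1.78 (SE 1.29, adjusted p = 0.517) without the block. Ncan, which encodes the related neurocan, had a blocked value of 2.42 (SE 0.46, adjusted p = 0.0690). DESeq2 with the block called Ncan (adjusted p = 1.49e-05), Bcan (2.78e-06) and some other genes of the list higher, beside 7.57% of all tested genes.

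Others with large values in the blocked fit did not pass. They were Adam12 (log2 fold change 3.48, SE 1.73), Adamtsl3 (2.86, SE 1.47), Sparc (2.71, SE 1.10), Lrp1, a receptor that clears protease and inhibitor complexes (2.31, SE 0.89), and Thbs2 (2.08, SE 1.38), with adjusted p-values of 0.219 to 0.420. For each the within-mouse log2 ratio was largest in mouse 57. It was 3.68, 7.23, 8.30, 6.10 and 6.77 there, in the same order, and at most 1.31, 1.78, 2.30, 1.39 and 1.06 in the other mice. Adam12 was at 0 CPM in E-cadHI cells of mice 57, 67 and 70 and in E-cadLO cells of mouse 70. Of the groups in this list, the 8 activators and inducers had 3 of 8 above 0 (median -0.25), the 7 binding partners 5 of 7 (median 0.59) and the 7 Adam proteases 5 of 7 (median 0.46). The 3 tested hyalectan substrates had 3 of 3 above 0 (median 1.78), the 3 tested Adamts-like genes 1 of 3 (median -0.17) and the 5 other inhibitors and clearance genes 5 of 5.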

How the data were processed

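Cells of each population were sorted from 4 mice, and mRNA libraries were sequenced by the authors as single reads, mapped with HISAT2 2.1.0 to GRCm38 and counted per gene (Icount in the methods, HTSeq in the submitters' processing notes). The deposited values are whole-number counts without normalization, and strand is not given in the sources used here. The 365 entries without a gene identifier (0.0636% to 0.0954% of counts) were left out. The table also pairs identifiers with names and positions. All 8 count columns were used.

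From the counts, edgeR 4.0.16 (R 4.3.3) was run on all 8 libraries with TMM, filterByExpr by group and the quasi-likelihood test, with no block since the methods name none, and Benjamini-Hochberg adjustment over 13598 genes at 0.05. Since both populations of a mouse come from the same animal, the mouse was also used as a replicate block (correlation of the deviations of the pair 0.352, 0.275, 0.309 and 0.698). A fold change is called where the adjusted p is under 0.05. Alternatives were DESeq2 1.42.0 with and without the block, its size factors, no filter, at least 10 counts in every library, a robust fit and leaving out each mouse. The SE is the log2 fold change divided by the root of F. Lengths come from GENCODE M21 and promoters from RefSeq GRCm38.p6. Chi-square per degree of freedom was at least 27.7 for any pair of libraries, so none was a copy. The mice are separate animals that received the same tumor line.

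The members, lists and naming rule were chosen with earlier results of these data known. Values per library are given for tested members with an absolute log2 fold change of at least 1, 1 direction in 4 of 4 mice or a call in the blocked fit or by DESeq2, and for all Timp genes (16 members), and at most 8 other pathway genes are named, those called in the blocked fit and then those with its largest values; results for a few genes are not reported here. The steps were tested on simulated data. Floors cover counting error only. Figures were made with matplotlib 3.10.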

Additional observations from a re-analysis of the deposited data

Results flagged for a closer look

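For each of the 16 members with values per library, the 4 E-cadHI levels, the 4 E-cadLO levels and the 4 within-mouse ratios were examined for a value far from the other 3 (Dixon's gap ratio at its 95% level). Of 48 such groups, 13 held one, and 8 of the 13 came from mouse 57. Independent, normally distributed values would give about 1 in 20, or 2.4. That number is no measure of chance here, since the CPM levels were not logged and members were named partly by fold changes to which mouse 57 contributed. In E-cadLO cells of mouse 57, Adamts5 (47.1 CPM), Adamts8 (125 CPM), Mmp10 (84.0 CPM), Mmp17 (7.15 CPM), Timp1 (37.0 CPM) and Timp2 (165 CPM) were above the other mice, and so was the within-mouse log2 ratio of Adamts8 (3.98). In E-cadHI cells, Adamts15 was lowest in mouse 57 (31.7 CPM), Adamts2 was highest in mouse 58 (0.766 CPM) and Mmp10 was highest in mouse 70 (5.61 CPM). The log2 ratio of Mmp17 was lowest in mouse 58 (1.298). Timp4 was highest in mouse 70 in both populations, with 47.8 CPM in E-cadHI and 169 CPM in E-cadLO cells.

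Mmp1a, annotated as a polymorphic pseudogene and outside the comparison, had 13 counts in the E-cadLO library of mouse 57 and 0 in the other 7 libraries, above the floor of 3 counts.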

How the results depend on the processing

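The number of genes called higher in E-cadLO cells was 0 in the edgeR fit without the block and 99 with the replicate block, 292 with DESeq2, 1029 with DESeq2 and the replicate block, 23 with no filter on low counts and 3 with at least 10 counts in every library. Genes called lower numbered 0 without the block, 56 with DESeq2 and 222 with DESeq2 and the replicate block. Members called higher were 0 in the fit without the block, 2 with the replicate block, 4 with DESeq2, 7 with DESeq2 and the replicate block and 1 (Timp3) with no filter, and members called lower were 0, and 1 with DESeq2 and the replicate block. Leaving out 1 mouse, with or without the block, gave 0 to 425 genes higher, 0 to 24 lower, 0 to 3 members higher, 0 members lower and a median log2 fold change of the members of 0.41 to 1.72. The 425 genes and 3 members (Mmp12, Timp3 and Timp4) came from the blocked fit without mouse 57, as did the median of 0.41. The blocked fit gave 1 member (Timp3) without mouse 58 and 0 without mouse 67 or 70.

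The sign changed for Timp1, whose log2 fold change was -0.033 with the replicate block and -0.013 with DESeq2 and the replicate block, and lay between -0.53 and 0.47 when 1 mouse was left out. It also changed for Adamts7 (-0.22 to 1.57) and Adamts8 (-0.055 to 2.36) when mouse 57 was left out. The cause of these changes was not tested. For the other 13 members with values per library the direction was kept in every alternative that gave one. The 22 members that did not pass the filter have no result in the fit without the block, some of them with many counts in 1 or 2 libraries and few in the others, and levels of 0 to 3 counts are at or under the floor.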
